A study of Rattus norvegicus and Heterocephalus glaber with 6 samples.

Results

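Heat shock proteins, DnaJ proteins and the subunits of the CCT chaperonin were described in liver RNA of rats and naked mole rats. Members were taken by symbol alone, without regard to case: Hspa, Hspb, Hspd, Hspe or Hsph followed by a number, symbols that begin with Hsp90 or Dnaj, Cct2 to Cct8, and Tcp1. This took 74 of the 22549 rows of each rat table and 7 of the 734 rows of each naked mole rat table, the latter with 5 symbols. The samples were polyadenylated liver RNA of rats (Rattus norvegicus) and of naked mole rats (Heterocephalus glaber), a subterranean rodent, in 3 libraries each. All were taken after 8 hours at 8% oxygen. Strain, sex and age are not given in the labels, and normoxia samples were not analysed here, so no value below is an effect of oxygen. The labels do not say that each library came from its own animal, so the errors and p-values measure the spread between libraries, which may be technical. Below, the rats are numbered by library, and a difference between rats is a difference between these libraries.

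Molecular chaperones bind unfolded stretches of other proteins and keep them from aggregating while they fold. HSP70 proteins do this in cycles of ATP binding and hydrolysis. DnaJ proteins (J-proteins, or HSP40) bring them substrates and trigger the hydrolysis. HSP90 acts later on clients such as kinases and steroid receptors, small heat shock proteins hold unfolded clients without ATP, and the chaperonins HSP60 and CCT enclose a client in a ring, in mitochondria and in the cytosol. The cytosolic stress genes are switched on by heat shock factor at heat shock elements, and those of the endoplasmic reticulum (ER) by the unfolded protein response at ER stress elements. In liver, ER chaperones also serve the steady secretion of plasma proteins.

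The elements of both kinds are shown because they fell in different members. RefSeq promoter windows of the build GRCr8, from 250 bases before each annotated gene start to 50 after it, were found for 59 of the 74 rat members. The 3-unit heat shock element was searched as GAANNTTCNNGAA and TTCNNGAANNTTC, which are reverse complements, so both strands were covered. It was present in the windows of 6 members (10.2%) and in 0.798% of all 33469 windows. These were Hspa8, Hsph1, Dnaja1, Cct4, Hspd1 and Hspe1. The ER stress element, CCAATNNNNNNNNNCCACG on either strand, was present in the windows of Hspa5 and Dnajc3, both of the ER, and in 0.0657% of all windows. Of the 11 ER members with a window, these 2 held the ER stress element and 0 held the 3-unit heat shock element. The 2-unit form, GAANNTTC or TTCNNGAA, lies within every 3-unit match and was present in 18 members (30.5%) and in 15.9% of all windows. The Hspa1a window held neither heat shock form, and those of Dnajb1 and Hspb1 held only the 2-unit form. No window was found for Hsp90aa1 and Hspa1b. A match is a description of the letters, not of binding. In the sequences below, from RefSeq, the matched element is in capitals with 20 bases on each side, or 8 for Dnaja1 and Cct4, where it lies after the start. All are on the + strand of GRCr8: Hspa8 at chr8:50080281-50080491, Hsph1 at chr12:10427312-10427364, Dnaja1 at chr5:60638405-60638433, Cct4 at chr14:101193074-101193102, Hspa5 at chr3:38452953-38453011 and Dnajc3 at chr15:102432514-102432572.
Hspa8: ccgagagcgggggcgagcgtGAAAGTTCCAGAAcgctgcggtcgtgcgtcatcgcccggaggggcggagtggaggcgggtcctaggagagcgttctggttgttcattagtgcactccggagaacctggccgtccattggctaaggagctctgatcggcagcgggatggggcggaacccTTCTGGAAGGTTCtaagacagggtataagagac
Hsph1: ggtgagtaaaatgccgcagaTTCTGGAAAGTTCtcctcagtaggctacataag
Dnaja1: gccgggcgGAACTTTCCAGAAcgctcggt
Cct4: gcgtcgctTTCTGGAAGGTTCgtggaggc
Hspa5: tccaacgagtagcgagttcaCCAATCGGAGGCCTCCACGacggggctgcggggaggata
Dnajc3: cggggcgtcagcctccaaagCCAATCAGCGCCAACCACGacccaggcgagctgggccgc

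The Hspa8 window held 2 separate 3-unit elements, from -213 to -201 and from -55 to -43, counted from the annotated start at 0. In Hsph1 the element ran from -36 to -24, and in Dnaja1 and Cct4 it lay after the start, from 9 to 21 and from 25 to 37. The ER stress element ran from -43 to -25 in Hspa5 and from -133 to -115 in Dnajc3. Hspd1 and Hspe1, the mitochondrial HSP60 and HSP10, are transcribed away from each other. In the deposited rat tables their rows lie 289 bases apart, and in GRCr8 their starts lie 290 bases apart, so their windows share 211 bases. That shared stretch, at chr9:64084077-64084287 of GRCr8 and read on the + strand toward Hspe1, holds both of the overlapping 3-unit matches, so Hspd1 and Hspe1 are not separate cases of the motif.
Hspd1 and Hspe1: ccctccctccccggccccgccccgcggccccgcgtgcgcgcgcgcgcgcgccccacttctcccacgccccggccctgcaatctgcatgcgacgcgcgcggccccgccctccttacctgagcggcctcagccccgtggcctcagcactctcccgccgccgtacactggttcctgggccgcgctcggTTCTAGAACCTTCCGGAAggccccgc

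**Figure D1:**
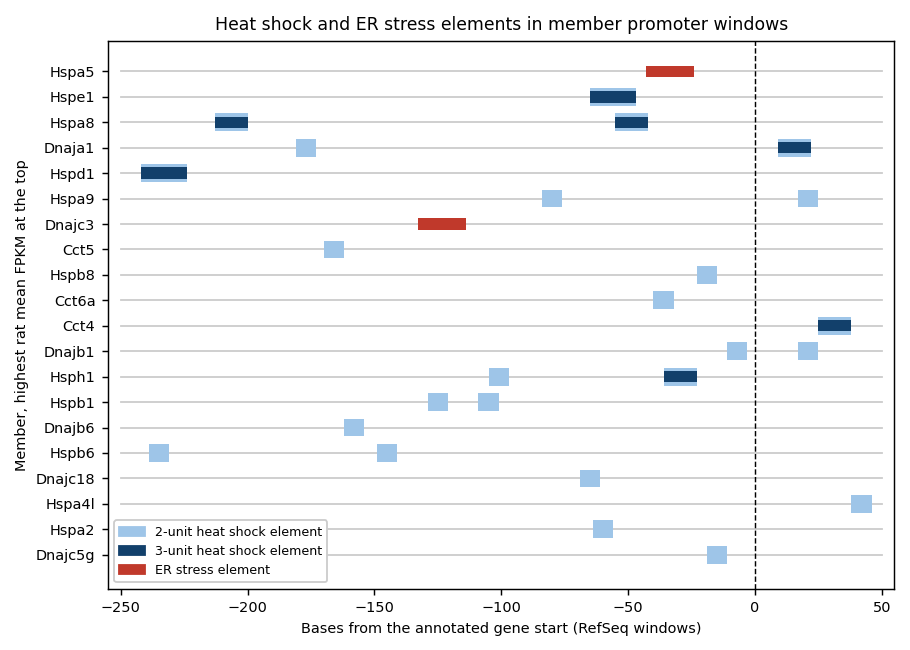
Positions of the elements in the promoter windows of the 20 members that hold any, in bases from the annotated start (dashed line), with the member of highest rat mean FPKM at the top. The 3-unit heat shock elements sit in Hspe1, Hspa8, Dnaja1, Hspd1, Cct4 and Hsph1, and the ER stress elements in Hspa5 and Dnajc3.

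Of the 7 rat members with a mean of 100 FPKM or more, all had a window and 4 held the 3-unit element. Of the 13 members under 1 FPKM with a window, 0 did. Among these 13, Hspa2, Hspa4l and Dnajc5g held the 2-unit form. Over all members with a window, the share with the 3-unit element was 10.2%. The share among all rat genes at these levels was not counted, so no link of the element to level was tested. These counts are a description over members, which share families and, for Hspd1 and Hspe1, the element itself.

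Levels are FPKM, fragments scaled to transcript length and to the mapped fragments of the library, so they are per length and can be set side by side between genes. The FPKM of each rat table added up to 527133 at the lowest and 557187 at the highest. In the far shorter naked mole rat tables these sums were 17543 and 21793. The tables hold no read counts, so depth is unknown and no counting interval was given. As a check of the tissue, 10 of the 10 hepatocyte markers with values in the 3 rats reached 100 FPKM. Of the testis markers, 3 of 4 were listed at 0 in the 3 rats. Of the 4 muscle markers, 2 were, Myh1 and Ckm. Acta1 averaged 0.0267 FPKM, and Des, which is also on the stellate cell list, was at 1.78, 1.81 and 3.27. None of the 12 hepatocyte markers on the list had a row in the naked mole rat tables, so that label was not checked.

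Chaperones were among the well expressed rat genes. Of the 74 members, 57 (77.0%) had a mean of at least 1 FPKM, 38 (51.4%) at least 10 and 7 (9.46%) at least 100, against 44.3%, 17.3% and 2.94% of all rat rows. The median of the 57 was 16.3 FPKM, against 6.74 over the 9987 rat rows that reached a mean of 1 FPKM and were above 0 in every rat library. In bulk liver RNA, more cells of a type and more RNA per cell cannot be told apart. The 7 highest rows were Hspa5, Hspe1, Hspa8, Hsp90ab1, Dnaja1, Hspd1 and Hspa9. They made up 63.2%, 61.7% and 63.9% of the members' summed FPKM in rat 1, rat 2 and rat 3, sums of 2425, 2475 and 2544. Many members have near-identical copies: in GRCr8, 23 have named pseudogenes, 33 of them for Hspa8, 23 for Hsp90ab1, 20 for Hspd1 and 16 for Hsp90aa1. Reads of such copies can be split or lost in the authors' estimates, so these levels are uncertain.

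**Figure D2:**
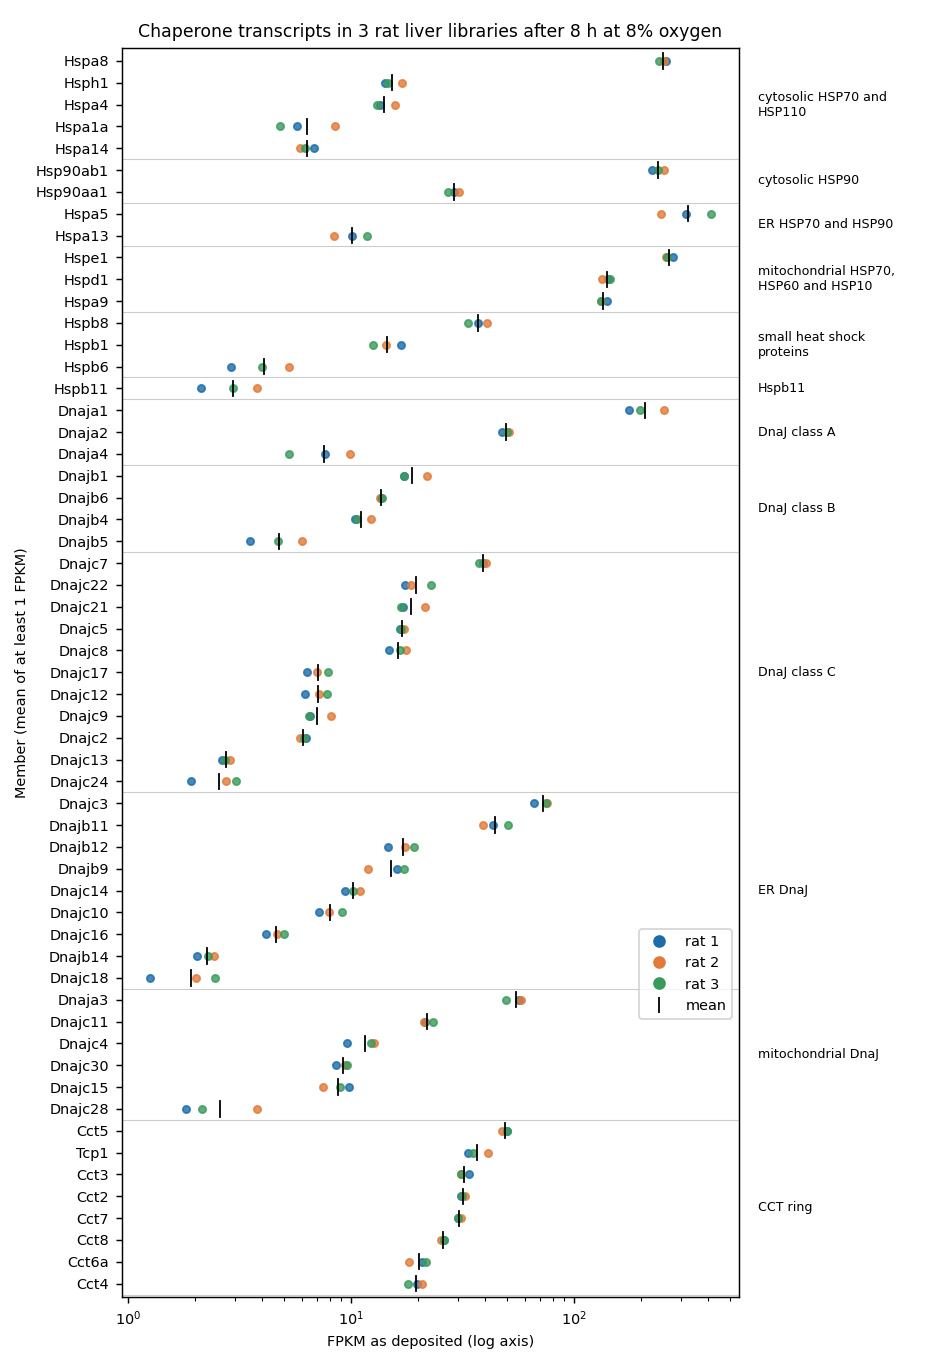
FPKM of the 57 members with a rat mean of at least 1 FPKM (log axis), by family and compartment, with 1 point per rat library and a bar at the mean. The highest row is Hspa5 at a mean of 325 FPKM and the lowest shown is Dnajc18 at 1.91.

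The cytosolic HSP70 transcripts were almost all of the constitutive gene. Hspa8, which encodes the HSC70 present in unstressed cells, stood at 257, 253 and 240 FPKM in rat 1, rat 2 and rat 3, a spread of 1.07 times from lowest to highest. It made up 86.0%, 83.5% and 85.6% of the FPKM of the 10 cytosolic HSP70 and HSP110 rows. The stress-inducible gene Hspa1a was at 5.71, 8.49 and 4.78 FPKM and its neighbour Hspa1b at 0.779, 1.36 and 0.672. Both were highest in rat 2, and together they made up 2.17%, 3.25% and 1.94% of the group. Their values are not separate: the Hspa1a row, on chromosome 20 from 3955273 to 3957748 as deposited, lies within the Hspa1b row, from 3945715 to 3959552. Hspa1a also carries the status LOWDATA in the 3 rats, the only member that does. The genes of HSP110, which exchange the nucleotide of HSP70, were Hsph1 at 15.2 ± 1.41 (SD, n = 3) and Hspa4 at 14.1 ± 1.48. Hspa14 was at 6.32 ± 0.463. The other members of the group, Hspa2, Hspa4l, Hspa12a and Hspa12b, lay between 0.0379 and 0.614 FPKM.

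Hsp90ab1, the constitutive HSP90 gene of the cytosol, stood at 223, 254 and 237 FPKM. Hsp90aa1, its more stress-inducible partner, was at 29.0, 30.3 and 27.2. The ratio of the former to the latter was 8.27 ± 0.517 (SD, n = 3), and the ranges of the pair were far apart in every rat.

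In the ER, Hspa5 (BiP), the HSP70 of that compartment, was the highest member of all at 318, 245 and 412 FPKM. It ranked 225 among the 22548 rat rows with 3 values, and its level in rat 3 was 1.69 times that in rat 2. Hspa13, a microsomal HSP70 relative, was at 10.1, 8.41 and 11.8. The Hsp90b1 gene (GRP94) was not analysed here. Among the J-proteins of the ER, Dnajc3 (p58IPK), a partner of BiP, was highest at 65.9, 75.6 and 74.8 FPKM. Dnajb11 (ERdj3), which binds BiP clients, was at 43.3, 38.9 and 50.5, and Dnajb9 (ERdj4), which works in ER-associated degradation, at 16.1, 11.9 and 17.2. Dnajb12, a J-protein of the ER membrane, was at 17.0 ± 2.24 (SD, n = 3). The other 5, Dnajc14, Dnajc10, Dnajc16, Dnajb14 and Dnajc18, had means between 1.91 and 10.2.

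The mitochondrial HSP70, HSP60 and HSP10 genes were high and, as deposited, even. Hspe1, the HSP10 lid of the chaperonin, was at 277, 257 and 261 FPKM, Hspd1, the HSP60 ring, at 143, 134 and 144, and Hspa9 (mortalin), the HSP70 of the matrix, at 139.8, 132 and 133. As deposited, no value of the 3 genes differed from another rat's by more than 1.08 times. With the rats scaled by their median ratio, the spread was 1.17 times for Hspe1 and 1.16 for Hspd1 and Hspa9. All 3 were lowest in rat 2 on both scales. The ratio of Hspe1 to Hspd1, which share the start region printed above, was 1.94, 1.92 and 1.81. Both genes were on chromosome 9 as deposited, Hspd1 from 53884192 to 53895043 and Hspe1 from 53895332 to 53898421. Of the mitochondrial J-proteins, Dnaja3 (Tid1), a partner of mortalin, was at 54.6 ± 4.67 (SD, n = 3), Dnajc11 at 22.0 ± 1.11 and Dnajc4 at 11.5 ± 1.71. Dnajc30, Dnajc15 and Dnajc28 were between 2.58 and 9.17 on average.

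The tables held 40 DnaJ rows, 33 of them at a mean of 1 FPKM or more and 1 of 100 or more. That row was Dnaja1, the farnesylated partner of HSC70, at 176, 252 and 198 FPKM, with rat 2 above the others. Its level was close to the 253 FPKM of Hspa8 in rat 2, while Hspa8 was 1.46 times as high as Dnaja1 in rat 1 and 1.22 times in rat 3. Dnaja2, the close relative of Dnaja1, stood at 49.4 ± 1.89 (SD, n = 3) and Dnaja4 at 7.64, 9.84 and 5.28. In class B, the stress-inducible Dnajb1 (HSP40) was at 17.3, 21.8 and 17.2 FPKM, Dnajb6, a suppressor of aggregation, at 13.6, 13.5 and 13.7, and Dnajb4 at 10.4, 12.3 and 10.6. As deposited, Dnajb6 was the steadiest of the members with a mean of at least 1, with a spread of 1.02 times. With the rats scaled by their median ratio it was not: its spread was 1.10 times and that of Dnaja2 1.01. In class C, Dnajc7, a co-chaperone that binds both HSP70 and HSP90, was highest at 38.9 ± 1.35. Dnajc22 followed at 19.6 ± 2.85 and Dnajc21, of ribosome assembly, at 18.5 ± 2.65. Summed over the 40 rows, DnaJ transcripts reached 683, 801 and 740.0 FPKM.

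Small heat shock proteins were led by Hspb8, which works with BAG3 in selective autophagy, at 37.0, 40.5 and 33.5 FPKM. Hspb1 (HSP27) was at 16.6, 14.4 and 12.6, and Hspb6, known mainly from muscle, at 2.90, 5.29 and 3.97. Hspb11, a protein of intraflagellar transport that carries the family name, was at 2.13, 3.79 and 2.94. Hspb2 and Hspb7, also muscle members, averaged 0.176 and 0.280.

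The CCT chaperonin folds actin and tubulin in a double ring of 8 different subunits. All 8 subunit transcripts lay between 19.5 and 49.0 FPKM on average, with a mean over subunits of 30.6. Cct5 was the highest at 49.7, 47.5 and 49.9 FPKM, with no overlap with the next, Tcp1, at 33.3, 41.3 and 35.3. Cct3 followed at 33.7, 31.2 and 31.1, Cct2 at 31.0, 32.4 and 31.4 and Cct7 at 30.1, 30.9 and 30.2. The values of Tcp1 and Cct3 overlapped, as did those of Cct3 and Cct2, and Cct2 and Cct7 were apart by a margin smaller than the SD of either. Cct8 was at 26.0, 25.2 and 26.0, below Cct7 in every rat. Cct6a, at 20.7, 18.2 and 21.5, and Cct4, at 19.8, 20.7 and 18.0, overlapped. Cct5 stood 2.53 ± 0.242 times (SD, n = 3) above Cct4. Cct6a has 14 named pseudogenes in GRCr8, and its row lies within that of Chchd2, a row at 134 to 142 FPKM, so its value is uncertain. The testis paralog Cct6b was at 0.0986 ± 0.0968.

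**Figure D3:**
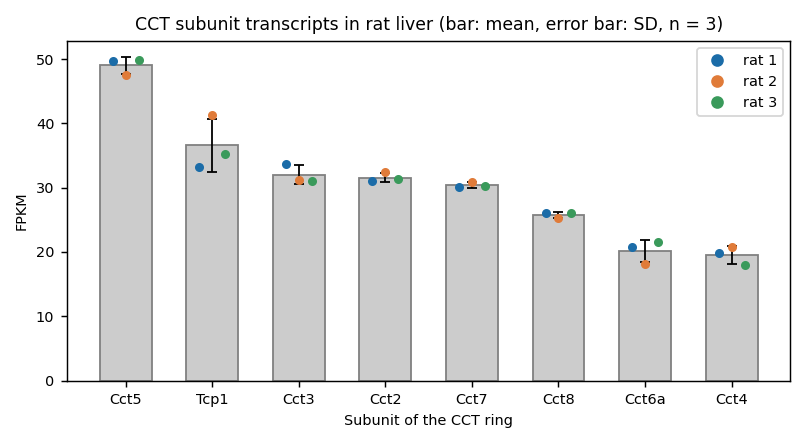
FPKM of the 8 CCT subunits in rat liver, in order of their mean (bars), with the SD (error bars, n = 3) and 1 point per library. Cct5 at 49.0 stands apart from the others, and Cct6a and Cct4 are lowest, near 20.1 and 19.5.

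The remaining members were low. A mean under 1 FPKM was found for 17 of the 74, and 5 were listed at 0 in the 3 rats: Dnajb8, Dnajc5b, Dnajc5g, Hspb3 and Hspb9. In all, 13 rat member rows overlap the row of another gene, so that reads there may not be separable. Dnajb3, for example, lies within rows of the Ugt1a locus.

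The rat libraries could be compared with each other only as a description, since they form 1 group. Over the 57 members, the median SD between rat libraries was 0.132 on log2 FPKM, against 0.165 over the 9987 rat rows. A ratio of highest to lowest rat of at least 1.5 was found for 9 of the 57 members (15.8%), against 18.8% of all rows, so the members did not stand out. It was found for 2 members without rat 2, 5 without rat 1 and 6 without rat 3. The 6 widest were Dnajc28, at 1.81, 3.80 and 2.14 FPKM, Dnajc18, at 1.25, 2.01 and 2.46, and Dnaja4, Hspb6, Hspb11 and Hspa1a, whose values are given above. None of the 6 had a mean above 7.59 FPKM. Hspa5, with its ratio of 1.69, was the only one of the 9 with a mean above 10 FPKM. Of the members, 30 of 57 (52.6%) were highest in rat 2, against 49.0% of all rows, and 15 of 57 (26.3%) were lowest there, against 22.5%. These shares are near the background and depend on scale: with the rats scaled by their median ratio, 19 were highest in rat 2 (36.5% of all rows were) and 19 lowest (33.5% of all rows).

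Within the members, the rat with the highest values was not the same in every group. Of the 14 cytosolic HSP70, HSP110, HSP90 and class A and B DnaJ rows with a mean of 1 FPKM or more, 11 were highest in rat 2, or 9 after scaling by the median ratio, where 49.0% and 36.5% of all rows were. They included Hspa1a, Hsph1, Hspa4, Dnaja1 and Dnajb1. Groups outside this set differed. Of the 8 CCT rows, 4 were highest in rat 2, or 1 after scaling, when 5 were lowest there. For class C DnaJ these were 6 of 11 rows, or 3 after scaling. Of the 3 small heat shock protein rows of at least 1 FPKM, 2 were highest in rat 2 on both scales. Of the 11 ER rows, 8 were highest in rat 3 (33.5% of all rows were), or 9 after scaling (32.1%). Hspa5, Hspa13, Dnajb9 and Dnajb11 were highest in rat 3 and lowest in rat 2 on both scales. They were the only 4 of the 11 ER rows lowest in rat 2, where 22.5% of all rows were, or 33.5% after scaling. The other 7 were lowest in rat 1. The mitochondrial Hspa9, Hspd1 and Hspe1 were also lowest in rat 2 on both scales, so this was not particular to the ER. The ratio of Hspa5 to Dnaja1 was 1.81, 0.971 and 2.09 in rat 1, rat 2 and rat 3. These groupings were chosen after the values were seen, and with 1 group of 3 rat libraries no test was made. Of 8 acute-phase markers, 8 were lowest in rat 2, with summed FPKM of 31388, 15667 and 33440. The marker lists were chosen with earlier results of these data known, so this count is a description only. Hepatocyte genes did not all do so: of the 10 hepatocyte markers with values in the 3 rats, 4 were lowest in rat 2 and 4 highest. Fgb, a fibrinogen chain counted on both lists, stood at 8594, 2257 and 8667 FPKM. Transferrin (Tf) stood at 11666, 14027 and 11927, transthyretin (Ttr) at 9869, 12914 and 10322, and Ahsg, the gene of fetuin-A, at 5448, 7247 and 5368. The 6 stellate cell or fibroblast markers with rows summed to 34.3, 22.4 and 31.1 FPKM, and 4 of them were lowest in rat 2. The 3 neutrophil markers summed to 2.23, 7.80 and 10.1. The 4 sinusoidal endothelium markers with rows summed to 56.8, 51.5 and 49.1 FPKM. The 8 macrophage markers with rows summed to 228, 236 and 311 FPKM, with Marco listed at 0 in each, and the globin Hbb was at 54.4, 357 and 348. Their part in the differences among the rat libraries was not tested.

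**Figure D4:**
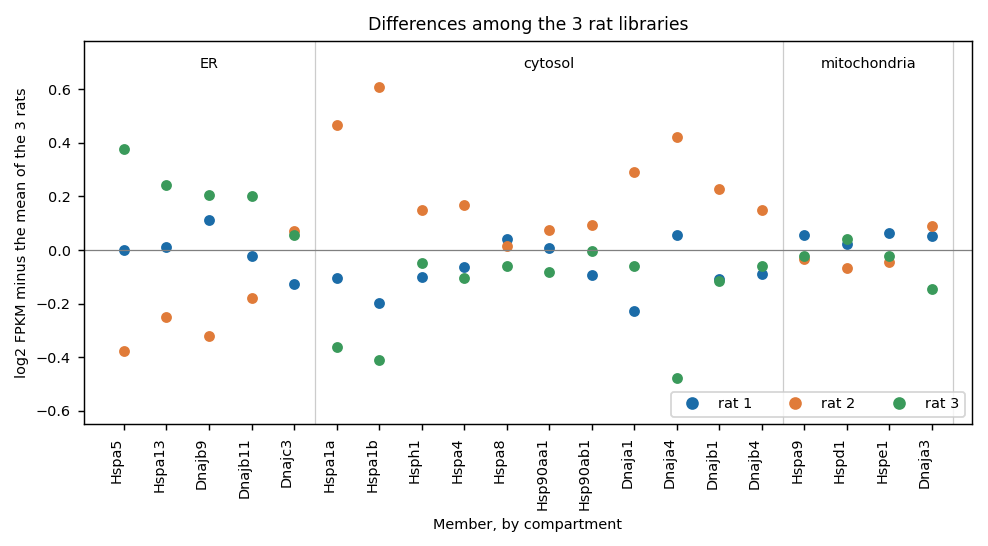
Log2 FPKM of 20 members minus the member's mean over the 3 rats, 1 point per library, by compartment. Hspa5, Hspa13, Dnajb9 and Dnajb11 are lowest in rat 2, and Hspa1a, Hspa1b, Dnaja1 and Dnaja4 highest there. The values of the mitochondrial members Hspa9, Hspd1 and Hspe1 lie close together, and are also lowest in rat 2.

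Partners and regulators of the chaperones were given from a list of 45 genes outside the symbol rule. Of these, 41 were in the rat tables, 39 at a mean of 1 FPKM or more and 25 at 10 or more, with a median of 19.1. The heat shock factors Hsf1 and Hsf2 were at 6.67 ± 0.331 and 4.70 ± 0.668 FPKM (SD, n = 3). Grpel1, the nucleotide exchange factor of mortalin, was at 103 ± 1.93, Cdc37, which brings kinases to HSP90, at 81.9 ± 4.68, and St13, which binds HSC70, at 69.6 ± 3.93. Stip1, which links HSP70 to HSP90, was at 27.2 ± 2.20. Bag3, the partner of Hspb8, was at 17.3, 22.5 and 18.4. Hyou1, an ER relative of HSP110 that serves Hspa5, was at 23.1, 17.0 and 33.0, lowest in rat 2 and highest in rat 3 like Hspa5. As deposited, other ER genes on the list shared this order only in part. Sil1 (20.9, 23.5 and 24.6) and Sec63 (17.5, 17.7 and 19.0) were also highest in rat 3, but lowest in rat 1. Serpinh1 (4.25, 3.11 and 3.31) was also lowest in rat 2, but highest in rat 1. Values of this list were not scaled by the median ratio, and the order of close values, such as those of Sec63, can depend on scale. Of the 39 genes, 5 were lowest in rat 2, against 22.5% of all rows. Fkbp5, an HSP90 co-chaperone induced by glucocorticoids, was at 39.5, 20.9 and 21.5. None of the 45 had rows in both species, so 0 of them could be tested between species.

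Between species, the level of chaperone transcripts was compared after the same low-oxygen exposure. The symbols HSPE1, HSPA8, DNAJA1, DNAJB6 and DNAJC10 had rows in both, and the mean of each was lower in naked mole rat. Rows were matched by symbol alone, so they need not be of the same gene. HSPE1, HSPA8 and DNAJC10 passed the filter on low values in both species and were called higher in rat by limma. DNAJA1 and DNAJB6 passed it only through rat, so their values are a description, with no test. Of the 288 symbols tested, 73.6% were called in either direction, 41% higher in rat and 32.6% higher in naked mole rat, and 259 had an unadjusted p under 0.05. A call therefore distinguishes few symbols here. The median log2 difference (naked mole rat minus rat) of all 288 was -0.40. Values were first brought to 1 scale through the median ratio of the symbols found in both species. Differences were taken after adding 1 and log2 transformation, which makes those of low genes too small.

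HSPE1 was at 279, 221 and 244 scaled FPKM in rat and at 7.92, 7.72 and 8.87 in naked mole rat, 27.0-fold lower (log2 difference -4.76, SE 0.131; limma adjusted p = 2.42e-08). HSPA8, summed over 3 naked mole rat rows, was at 259, 217 and 224 against 15.3, 15.4 and 19.1, 13.3-fold lower (log2 difference -3.74, SE 0.143; limma adjusted p = 1.34e-07). The libraries of each species lay close together for both. The size of both differences depended on the scale. With each library scaled to 1000000 over the shared symbols the log2 difference was -3.92 for HSPE1 and -2.82 for HSPA8, and with quantile normalization it was -3.94 and -2.80.

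DNAJC10 (ERdj5), a reductase of the ER, was at 7.19, 6.83 and 8.47 in rat against 2.89, 2.49 and 2.99, 2.24-fold lower (log2 difference -1.16, SE 0.113; limma adjusted p = 3.06e-05). Its call depended on the scale: with quantile normalization its log2 difference was -0.61, and with each library scaled to 1000000 it was -0.43, both under the limit of 1. The median of all tested symbols itself lay between -0.62 and 0.77 over the 4 scalings. Relative to that median, the log2 difference of DNAJC10 lay between -1.20 and -0.70 and that of HSPE1 between -4.69 and -4.11.

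DNAJA1 was at 177, 216 and 185 scaled FPKM in rat and at 0.295, 0.255 and 0.433 in naked mole rat, where all 3 values were under the filter of 1. Its log2 difference was set largely by the amount added before the log: it was -7.18 with 1, -7.87 with 0.5 and -8.83 with 0.1. DNAJB6 was at 13.7, 11.6 and 12.8 in rat and at 0.351, 1.25 and 2.72 in naked mole rat. Its log2 difference was -2.61 with 1 added and -3.41 with 0.1, and the naked mole rat libraries differed widely among themselves.

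**Figure D5:**
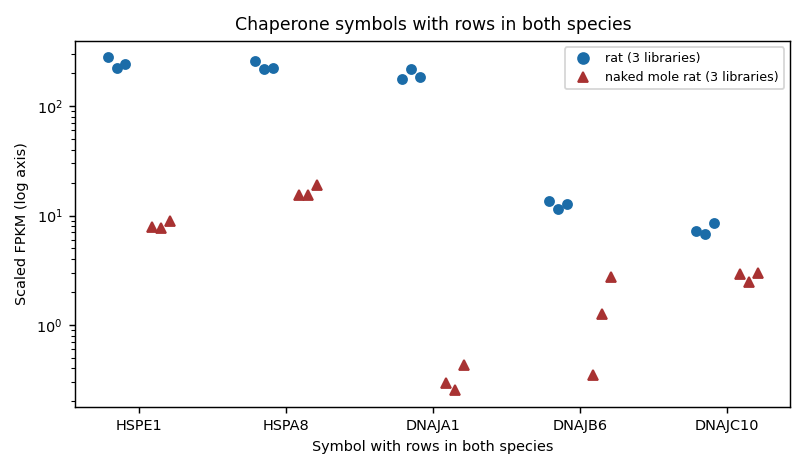
Scaled FPKM (log axis) of the 5 chaperone symbols with rows in both species, with 3 rat libraries (circles) and 3 naked mole rat libraries (triangles) each. The mean of each symbol is lower in naked mole rat. The species are furthest apart for DNAJA1 (177 to 216 against 0.255 to 0.433). They are closest for DNAJC10 (6.83 to 8.47 against 2.49 to 2.99).

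The rows compared are not of like extent, and the species cannot be told apart from the genome and annotation behind its tables. The naked mole rat HSPE1 row spans 3263939 bp, on scaffold144 from 102538 to 3366477, against 3089 bp in rat. The DNAJA1 row spans 2627575 bp on scaffold132 (10912 in rat) and the DNAJC10 row 1022906 bp on scaffold138 (40186 in rat). HSPA8 has rows of 3323507 bp on scaffold106, 3340258 bp on scaffold39355 and 1974 bp on scaffold370, against 1 rat row of 3726 bp. Their scaled means were 13.1 ± 1.79, 3.27 ± 0.339 and 0.215 ± 0.0588 (SD, n = 3), so most of the naked mole rat value came from a row far longer than the gene. DNAJB6 goes the other way, with a row of 324 bp on scaffold113868 against 63747 bp in rat.

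Of the 7 naked mole rat rows, 6 overlap the row of another gene. DNAJB6 lies within the UGT1A1 row, which was at 46.4 ± 12.5 FPKM (SD, n = 3), and HSPE1 overlaps ORC2L at 21.5 ± 0.382. In rat it is Dnajb3 that lies within rows of the Ugt1a locus, while Dnajb6 lies on chromosome 4. Whether the DNAJB6 rows of both species are of the same gene was not tested. The HSPA8 row on scaffold39355 lies within that of ATP6V0B, at 14.9 ± 1.19. MAP2K1, within DNAJA1, was at 2.07 ± 0.477, RAB5A, whose row contains that of DNAJC10, at 0.372 ± 0.116, and CHMP5, within the HSPA8 row on scaffold106, at 0.396 ± 0.0900. Over the 278 tested symbols with 1 row in each species, naked mole rat rows of at least 1000000 bp were called higher in rat for 31 of 94, and rows shorter than 0.5 times the rat span for 40 of 55. The part of row extent in the chaperone differences was not tested.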

How the data were processed

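Each library came with a table of FPKM values made by the authors, in the columns of a Cufflinks gene table per the file headers. Cufflinks 2.1.1, TopHat2 2.0.9, Bowtie2 2.1.0 and Picard 1.137 are listed in the submitters' processing notes, while the genome build and annotation of either species were not given there. Values with the status HIDATA were treated as missing, which touched 0 members. The members and lists were chosen with earlier results of these data known.

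Rat levels are FPKM as deposited. Between species, symbols were matched without regard to case (388 shared), rows of a symbol were summed, and libraries were scaled by the median ratio to the geometric mean over symbols above 0 in all libraries (rat factors 0.994 to 1.17, naked mole rat factors 0.889 to 0.973). The 288 symbols that reached a scaled FPKM of 1 in 3 or more libraries entered limma (version 3.58.1, R 4.3.3) as log2 of the scaled FPKM plus a pseudocount of 1. The fit used limma's trend option, and p-values were adjusted by Benjamini-Hochberg over the 288. Symbols were called at an adjusted p under 0.05 where the groups also differed by 1 or more on the log2 scale. The fit was tested on simulated data. An exact permutation test of 3 against 3 cannot go below p = 0.1 and was not used.

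Alternatives were the scaling, pseudocount, filter, symbols with several rows, the intensity trend, a block for the replicate number and each library left out. Genes were named by rule: members with naked mole rat rows, a fixed set of main chaperones, the 3 highest rows per group, the 6 widest ratios between rats among members of mean 1 FPKM or more, and rows listed at 0; others were chosen after their values were seen. Promoter windows and pseudogene names came from RefSeq (GRCr8), whose coordinates are not those of the tables.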

Additional observations from a re-analysis of the deposited data

How the results depend on the processing

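All 5 chaperone symbols kept their direction under every alternative run. HSPE1 kept its call under 16 alternatives, with log2 differences from -4.94 to -3.92. HSPA8 kept it under the 15 that gave it a value, since it has several rows, with -4.05 to -2.80. DNAJA1 and DNAJB6, which are described without a test, ranged from -8.83 to -6.74 and from -3.41 to -2.19. DNAJC10 lost its call with each library scaled to 1000000 (log2 difference -0.43, adjusted p = 0.0311) and with quantile normalization (-0.61, adjusted p = 0.00209); its size fell under the limit of 1, while its adjusted p over all alternatives was at most 0.0311. Symbols called higher in naked mole rat numbered 94, and 169 with each library scaled to 1000000, where 358 symbols passed the filter. With a library left out, the filter asked for 2 libraries. Symbols called higher in rat ranged from 101 to 128.

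The labels state no pairing of the libraries. Deviations of same-numbered libraries of the species had r of -0.0355, -0.0864 and -0.0435, and those of the other pairs lay between -0.0656 and 0.116. These values cannot tell whether same-numbered libraries shared a batch. With the replicate block the counts of calls were the same, 118 and 94, and HSPE1, HSPA8 and DNAJC10 were still called.

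The median rat level of 16.3 FPKM was 11.5 over all members above 0, 27.3 over members of at least 10 FPKM, and 15.8 to 16.6 with 1 rat left out. The median SD between rat libraries ranged from 0.0945 to 0.157 over its alternatives. Depth is unknown, so low values carry an error that could not be given.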
